A study of Mus musculus with 8 samples.

Results

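Matrix metalloproteinases (MMP), the ADAM and ADAMTS proteases and their tissue inhibitors (TIMP) were followed in mouse muscle stem cells before and after a period in culture. The set held every gene of the count table whose symbol begins with Mmp, Adam or Timp and a number, or with Adamts. The rule uses names alone, but it was set with earlier results of these data known. It held 85 lines of 45706: 24 MMP, 33 ADAM, 19 ADAMTS, 5 ADAMTS-like and 4 TIMP lines. Wild-type C57BL/6 females of 8 to 12 weeks gave hindlimb muscle cells, sorted by flow cytometry for α7-integrin and CD34 and against CD45, Sca1, CD31 and CD11b, which mark blood, fibro-adipogenic and endothelial cells. All 8 libraries share this strain, genotype, sort and tissue. The fresh group (5 libraries) held sorted cells with no culture, and the cultured group (3 libraries) held such cells after 48 h on a hydrogel of 12 kPa in medium with fetal bovine serum. Fresh replicates 1 to 3 were sequenced in run 1, and fresh replicates 4 and 5 shared run 2 with all cultured libraries. Nothing in the labels says whether the libraries of a group came from separate animals or cultures, so p-values measure the spread between these libraries, which may be technical.

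MMPs, ADAMs and ADAMTS proteins are zinc proteases that act outside the cell or at its surface. MMPs cut collagens, gelatin and basement membrane proteins, membrane-anchored ADAMs shed the outer parts of receptors, ligands and cadherins, and secreted ADAMTS proteins cut proteoglycans such as versican and trim procollagens. TIMPs are small secreted proteins that block the active sites of these enzymes, each with its own range of targets. ADAMTS-like proteins carry the matrix-binding parts of the ADAMTS family without the protease domain. In muscle, stem cells lie between the fibre and its basement membrane, and both the matrix around them and its breakdown have been linked to their exit from quiescence and their migration.

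Total counts were 13919508 to 20068199 per library, and levels are in CPM, the count relative to the library size after scaling by TMM factors, in the usual per-million unit. Genes with a count numbered 32710 to 34689 in the fresh libraries of run 1, 20480 and 20898 in those of run 2, and 15415 to 17852 in the cultured libraries. The share of counts on ribosomal RNA of mitochondria was 26.5% and 23.2% in the run-2 fresh libraries, 5.25% to 10.5% in those of run 1 and 11.1% to 18.4% in the cultured ones. The TMM factors of the run-2 fresh libraries were 0.790 and 0.841, and the part of this RNA in the results was not tested. Pax7, the defining transcription factor of muscle stem cells, stood at 669 to 1362 CPM in fresh and 51.8 to 92.0 CPM in cultured libraries. The summed level of 7 muscle stem cell markers was 2260 to 3250 CPM in fresh and 439 to 472 CPM in cultured libraries. Markers of other cells were also present in the fresh libraries. The sums were 287 to 2095 CPM for 8 pericyte markers, 78.6 to 857 CPM for 6 Schwann cell markers, 900 to 1324 CPM for 9 fibro-adipogenic markers and 38.0 to 424 CPM for 5 tenocyte markers. In cultured libraries the same sums were 0 to 11.8, 0.0527 to 3.82, 10.1 to 20.9 and 4.32 to 14.9 CPM. Smooth muscle markers summed to 237 to 829 CPM in fresh and 28.3 to 137 CPM in cultured libraries. Endothelial markers summed to 79.7 to 120 and 0.720 to 41.2 CPM, and blood markers to 25.1 to 71.9 and 3.87 to 10.3 CPM. The myofibre sums overlapped, at 29.0 to 33.4 CPM in fresh and 11.4 to 77.6 CPM in cultured libraries. The pericyte markers Kcnj8, Abcc9 and Vtn, the fibro-adipogenic markers Ly6a and Pi16, the Schwann markers Sox10 and S100b and the tenocyte markers Tnmd and Kera had no count in any cultured library. The part of these other cells in the changes given next was not tested. In bulk libraries fewer cells of a type and less RNA per cell cannot be told apart.

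Culture was followed by a lower level of most of the matrix proteases that were abundant in fresh cells. It was also followed by a higher level of a short list that included Adam12, Adam19, Adamts14 and Timp1. Adamts4, Adam9, Adam10 and Adam17, which were abundant in fresh cells too, were not called at the threshold given next. Of the 85 lines, 59 passed the filter on low counts. At an adjusted p of at most 0.05 (edgeR's quasi-likelihood test with Benjamini-Hochberg adjustment over all 19054 genes tested), 28 members were called, against 26.9% of all genes tested. Lower in cultured cells were 23 of them, against 18.0% of all genes tested, and higher were 5, against 8.87%. The other 31 were not called. The median log2 fold change of the tested members was -3.33, or -3.03 with genes near 0 counts at their bounds, and that of all tested genes was -0.21. A gene detected in only a single group can pass the filter through that group, so these counts describe the tested members and not all 85. Of all calls, 33.0% were higher and 67.0% lower in cultured cells. With no scaling factors the median of all genes moved by 0.24 and the split became 46.2% to 53.8%. The members' median, relative to that of all genes, was -3.12 as scaled and -2.86 unscaled, with 5 members higher and 22 lower unscaled.

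By family, 5 MMPs of 14 tested were lower and 1 was higher, against 18.0% and 8.87% of all genes tested. Of 19 tested ADAMs, 3 were lower and 2 higher, which is near these shares of all genes. Among 18 tested ADAMTS genes 9 were lower and 1 was higher, and 4 of 5 ADAMTS-like genes were lower with none higher. Of 3 tested TIMPs, 2 were lower and 1 higher. Every cultured library lay below every fresh one for 31 tested members, against 26.1% of all genes tested, and above for 4, against 13.8%. The groups overlapped for the remaining 24. No count in any cultured library was found for 11 tested members, against 12.4% of all genes tested.

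**Figure D1:**
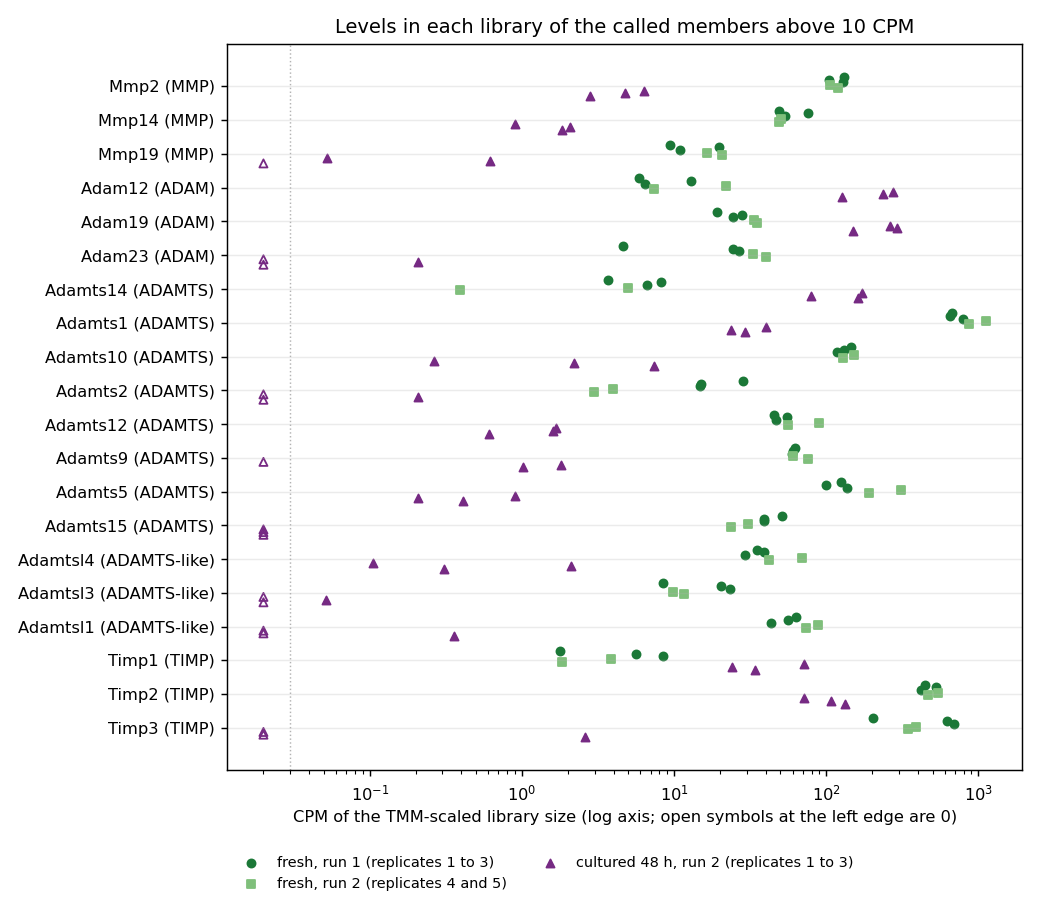
Level of each called member with a group mean of at least 10 CPM in every library, on a log axis in CPM of the scaled library size. Circles are the fresh libraries of run 1, squares the fresh libraries of run 2 and triangles the cultured libraries, with open symbols at the left edge for 0. Adam12, Adam19, Adamts14 and Timp1 have all cultured triangles to the right of the fresh symbols, and the other members have them to the left.

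Sequences upstream of genes that moved in opposite directions are shown for 4 members, to let the fresh-enriched Adamts1 and Mmp14 be set beside the culture-enriched Adam19 and Timp1. Each run is the 250 bases before the RefSeq transcript start (GRCm38.p6), 5′ to 3′ on the gene's strand. These 4 were taken from the called members whose windows end before the GENCODE gene start. Others that meet this, among them Adam23, Adamts12, Adamtsl3 and Adamtsl4, are not shown. The 4 are thus examples and do not stand for all called members. Capitals mark matches on either strand to 5 motifs. The TATA box was searched as TATAAA and the GC box as GGGCGG. The muscle E-box was searched as CAGCTG, the binding sequence of AP-1 as TGANTCA, and that of the TEAD factors as GGAATG. No base in them is shared by different motifs.
Adamts1: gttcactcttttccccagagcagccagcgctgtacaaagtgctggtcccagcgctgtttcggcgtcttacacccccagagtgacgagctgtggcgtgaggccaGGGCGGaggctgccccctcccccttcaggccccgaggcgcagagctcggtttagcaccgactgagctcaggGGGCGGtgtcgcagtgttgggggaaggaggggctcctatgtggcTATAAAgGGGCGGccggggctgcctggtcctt
Mmp14: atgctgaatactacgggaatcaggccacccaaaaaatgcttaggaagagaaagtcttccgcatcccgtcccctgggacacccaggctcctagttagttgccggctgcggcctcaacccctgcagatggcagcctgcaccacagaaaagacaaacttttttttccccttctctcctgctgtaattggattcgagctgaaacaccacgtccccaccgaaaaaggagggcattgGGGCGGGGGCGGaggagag
Adam19: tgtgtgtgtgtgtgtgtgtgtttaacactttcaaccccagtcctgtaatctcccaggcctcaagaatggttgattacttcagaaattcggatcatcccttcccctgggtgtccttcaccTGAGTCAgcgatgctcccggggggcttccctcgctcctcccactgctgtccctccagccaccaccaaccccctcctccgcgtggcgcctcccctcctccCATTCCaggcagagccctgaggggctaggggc
Timp1: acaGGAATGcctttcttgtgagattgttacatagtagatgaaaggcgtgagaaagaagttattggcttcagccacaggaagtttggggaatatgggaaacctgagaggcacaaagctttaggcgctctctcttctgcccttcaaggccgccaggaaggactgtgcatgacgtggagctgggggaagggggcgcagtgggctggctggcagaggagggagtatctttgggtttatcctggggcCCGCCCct
The windows are chr16:85803114-85803363 on the minus strand for Adamts1 and chr14:54431348-54431597 on the plus strand for Mmp14. They are chr11:46055734-46055983 for Adam19, which has further starts in the table, and chrX:20869916-20870165 for Timp1, both on the plus strand. Adamts1 has a TATA box 32 bases and GC boxes 147, 76 and 25 bases before its start, and Mmp14 has GC boxes 19 and 13 bases before it. Adam19 has an AP-1 match 131 bases and a TEAD match 32 bases before the start shown, and Timp1 has a TEAD match 247 bases and a GC box 8 bases before its start. The other Adam19 windows have neither of these matches. Its window chr11:46054252-46054501, which also ends before the GENCODE gene start, has no match to any of the motifs. The window chr11:46127654-46127903 has E-boxes only. Of called members not shown, Adamts14, called higher, has GC boxes and no other match. Adam23, called lower, has no match to any of the motifs.

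Promoters of 53 members were in the RefSeq table. Among the members without one are Adam12, Adamts4, Adamts5, Adamts10, Adamts15, Adamtsl1, Mmp2 and Mmp19. A GC box was found in 11 of the 16 promoters of members called lower (68.8%), in 2 of the 5 promoters of members called higher (40.0%) and in 32.7% of all 32851 promoters. The E-box was found in 6 of 16 (37.5%), 1 of 5 (20.0%) and 13.0%, and the TATA box in 3 of 16 (18.8%), 0 of 5 and 12.4%. The AP-1 match was found in 0 of 16, 1 of 5 (20.0%) and 6.75%, and the TEAD match in 0 of 16, 2 of 5 (40.0%) and 12.6%. The 5 promoters of members called higher come from 3 of the 5 such genes, and the 16 of members called lower from 16 of 23. The shares do not cover the called genes without a promoter, and a match is a description of letters.

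Among the ADAMTS proteoglycanases, which cut versican and aggrecan, Adamts1 was the member with the highest level in fresh cells. Adamts1 (chr16:85793827-85803113, minus strand, coordinates of mm10 from GENCODE M21) stood at 669, 651, 788, 1127 and 866 CPM in fresh replicates 1 to 5 and at 39.9, 23.5 and 29.4 CPM in cultured replicates 1 to 3. All fresh libraries lay far above all cultured ones. The log2 fold change, cultured over fresh, was -5.01 ± 0.29 (SE, adjusted p = 4.09e-05). Adamts5 (chr16:85856173-85901828, minus strand), an aggrecanase whose gene is separated from Adamts1 by a gap of 53.1 kb, had 124, 99.3, 136, 312 and 190 CPM in fresh and 0.896, 0.206 and 0.408 CPM in cultured libraries. No cultured library reached 1 CPM, and the log2 fold change was -8.95 ± 0.58 (adjusted p = 6.13e-05). Without cultured replicate 1 it was -9.58.

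Adamts15 (chr9:30899155-30922452, minus strand), a versican-cutting enzyme, had 50.8, 38.8, 39.2, 30.7 and 23.7 CPM in fresh libraries and no count in any cultured library. Set against 3 counts over the cultured libraries (0.0517 CPM), its level was at least 526-fold lower in culture (adjusted p = 0.000238). Adamts9 (chr6:92772699-92943492, minus strand), also a versicanase, had 62.2, 60.7, 59.2, 60.3 and 75.7 CPM in fresh and 0, 1.80 and 1.02 CPM in cultured libraries. All fresh libraries lay above the cultured ones, with fresh replicate 5 the highest and a log2 fold change of -6.16 ± 1.05 (adjusted p = 0.00414). It was -5.52 without cultured replicate 1 and -6.99 without cultured replicate 2. Genes on the opposite strand cover 12.0% of its exon bases, and the sources used here do not say whether the counting used strand. Adamts4 and Adamts20, picked out after their values were seen, had 74.0 to 270 and 28.7 to 39.9 CPM in fresh libraries but were not called. Adamts4, an aggrecanase, had 0, 11.7 and 0 CPM in culture (log2 fold change -4.35 ± 1.65, adjusted p = 0.0832). Without cultured replicate 2, the only cultured library with counts, it was called, at least 1021-fold lower. Only cultured libraries at 0 CPM remained in that fit, so this call does not show that Adamts4 fell. Adamts20 had 0, 0.0515 and 7.29 CPM in culture (log2 fold change -3.64 ± 1.64, adjusted p = 0.134). Without cultured replicate 3, which held nearly all of its cultured counts, it was called with a ratio of 1173. That call follows from leaving out the high library and does not show that Adamts20 fell. Without cultured replicates 1 or 2 its log2 fold change was -2.993 or -3.004, and that of Adamts4 was -3.70 without cultured replicates 1 or 3.

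The procollagen N-propeptidases, which remove the amino-terminal propeptide of fibrillar procollagens, moved in both directions. Adamts2 (chr11:50602084-50807573, plus strand) had 28.5, 15.1, 14.9, 3.98 and 3.00 CPM in fresh and 0, 0.206 and 0 CPM in cultured libraries. The fresh libraries of run 2 lay below those of run 1, and all lay above the cultured ones (log2 fold change -5.52 ± 1.27, adjusted p = 0.0128). The fold was -4.93 without cultured replicate 1, and at least 44.9-fold lower without cultured replicate 2, the only cultured library with a count. With the libraries of run 2 alone the call was lost (adjusted p = 0.110). Adamts14 (chr10:61197112-61273438, minus strand) had 3.68, 8.15, 6.60, 4.99 and 0.391 CPM in fresh and 172, 79.0 and 162 CPM in cultured libraries. Each cultured library was above every fresh one, with a log2 fold change of 5.67 ± 1.03 (adjusted p = 0.00522). Leaving out fresh replicate 4 gave 8.48, and leaving out fresh replicate 5 gave 4.79. The third gene of this group, Adamts3, was called lower from a level of 0.326 to 8.34 CPM in fresh libraries to no count in culture, and this call was lost without fresh replicate 4.

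Adamts10 and Adamts12, 2 members outside these groups, fell as well. Adamts10 (chr17:33524204-33553782, plus strand), a fibrillin-binding member, had 144, 130, 118, 151 and 129 CPM in fresh and 0.263, 2.21 and 7.39 CPM in cultured libraries. The fresh values were close to each other and the cultured ones spread widely below them (log2 fold change -5.41 ± 0.95, adjusted p = 0.00464). The fold was -4.80 without cultured replicate 1 and -6.77 without cultured replicate 3. Adamts12 (chr15:11064790-11349231, plus strand), which cuts cartilage oligomeric matrix protein, had 45.3, 54.9, 46.8, 90.2 and 55.6 CPM in fresh and 1.69, 1.60 and 0.612 CPM in cultured libraries. Fresh replicate 4 was the highest, and all fresh libraries lay above the cultured ones (log2 fold change -5.80 ± 0.52, adjusted p = 0.000253). Adamts17, a further called member, was below 10 CPM in both groups.

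The ADAMTS-like genes were near 0 in culture. Adamtsl1 (chr4:85514172-86428385, plus strand), also named punctin-1, had 63.1, 56.4, 43.3, 88.5 and 73.4 CPM in fresh and 0, 0 and 0.357 CPM in cultured libraries. The only counts in culture were in replicate 3 (log2 fold change -9.31 ± 1.04, adjusted p = 0.00065). It was -8.70 without cultured replicate 1, -8.73 without cultured replicate 2, and at least 1036-fold lower without cultured replicate 3. Adamtsl3 (chr7:82335694-82614450, plus strand), punctin-2, had 8.47, 20.3, 23.2, 9.79 and 11.7 CPM in fresh and 0, 0.0515 and 0 CPM in cultured libraries. With a single count in culture, the ratio of the run-2 levels, pooled over the libraries of each group, was 622 (95% counting interval 111 to 24627, adjusted p = 0.00127). Without cultured replicate 2 the level was at least 138-fold lower. Adamtsl4 (chr3:95676201-95687917, minus strand), which binds fibrillin microfibrils, had 35.1, 39.2, 29.2, 69.7 and 41.9 CPM in fresh and 0.105, 2.11 and 0.306 CPM in cultured libraries. The groups lay apart (log2 fold change -6.04 ± 1.03, adjusted p = 0.00415), and without cultured replicate 2 the change was -8.01. Adamtsl2 was called below 10 CPM, and Adamtsl5 was not called (adjusted p = 0.196).

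**Figure D2:**
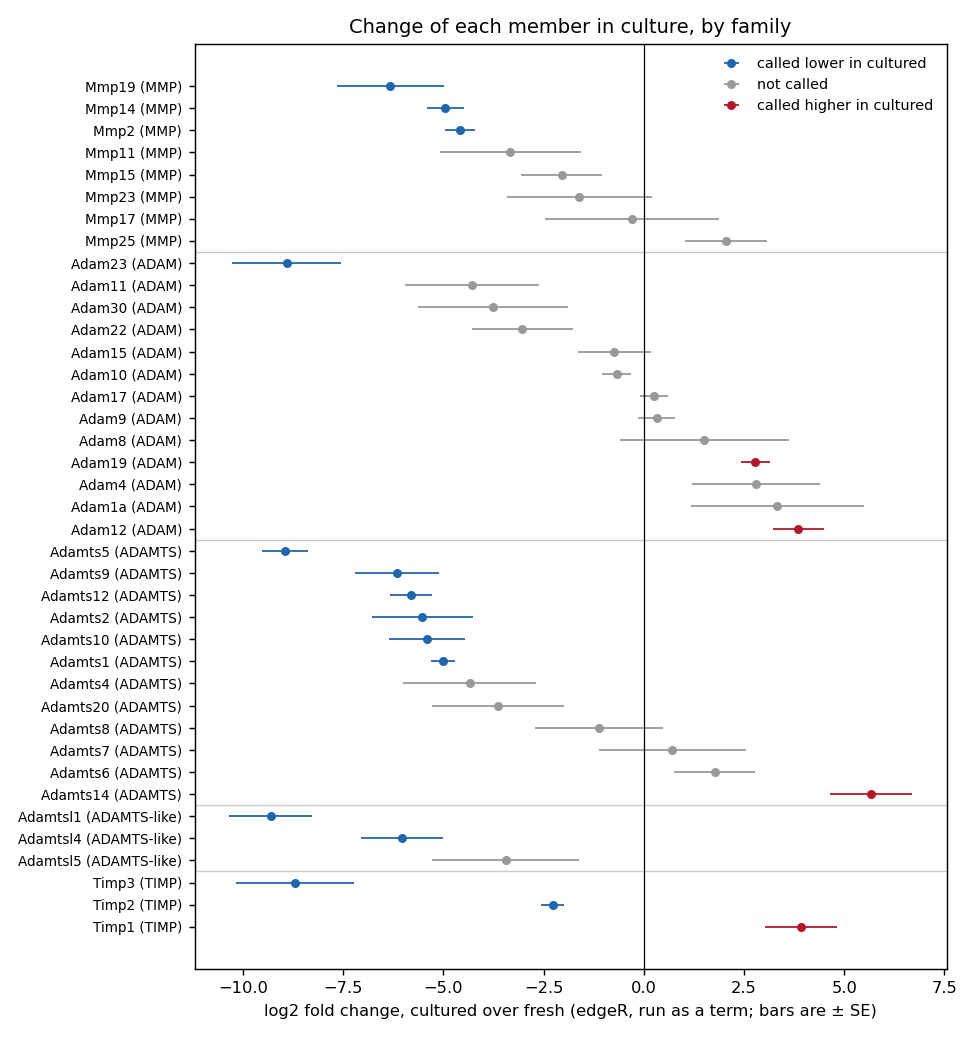
Log2 fold change of 39 tested members, cultured over fresh, with the SE as bars, grouped by family. Drawn are those with a fitted fold and at least 1 CPM in the run-2 fresh or the cultured libraries, and members given as bounds or ratios are left out. The called ADAMTS and MMP genes sit to the left of 0 with the exception of Adamts14 at 5.67, while Adam10 sits at -0.68 and Adam17 at 0.26, both not called.

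Among the MMPs, the gelatinase Mmp2 and its membrane-bound activator Mmp14 both fell. Mmp2 (chr8:92827291-92853420, plus strand), which cuts gelatin and type IV collagen, had 132, 104, 128, 106 and 119 CPM in fresh and 6.38, 4.79 and 2.80 CPM in cultured libraries. The fresh values of both runs lay together, far above the cultured ones, and the log2 fold change was -4.60 ± 0.37 (adjusted p = 0.000158). Mmp14 (chr14:54431612-54445364, plus strand), a collagenase of the cell surface, had 49.1, 75.4, 53.3, 50.6 and 49.0 CPM in fresh and 0.896, 2.06 and 1.83 CPM in cultured libraries. Only fresh replicate 2 stood apart within the fresh group, and the log2 fold change was -4.96 ± 0.47 (adjusted p = 0.000293). Mmp19 (chr10:128790910-128800824, plus strand), an MMP that cuts basement membrane proteins, had 9.36, 19.7, 10.9, 16.4 and 20.6 CPM in fresh and 0.0527, 0.618 and 0 CPM in cultured libraries. Its groups did not overlap (log2 fold change -6.33 ± 1.34, adjusted p = 0.00916). The change was -5.71 without cultured replicate 3, the ratio was 713 without cultured replicate 2, and with run 2 alone the call was lost (adjusted p = 0.0604). Genes on the opposite strand cover 28.3% of the exon bases of Mmp19.

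Mmp9, the other gelatinase, was the only MMP called higher and was picked out after its values were seen. It had 0.171, 1.14, 0.42, 0 and 0 CPM in fresh and 3.16, 0.154 and 5.75 CPM in cultured libraries, so the groups overlapped. Against the run-2 fresh libraries, which had no count, it was at least 31.4-fold higher (adjusted p = 0.0332). Leaving out a single library gave a bound of 15.5 (fresh replicate 4), 15.9 (fresh replicate 5) or 17.2 (cultured replicate 3). The call was lost in each of these fits and also on leaving out fresh replicates 1 or 3, and against the run-1 fresh libraries the log2 fold change was 2.45 (adjusted p = 0.198). Mmp21 and Mmp28 were called lower from levels below 10 CPM, and Mmp21 lost its call on leaving out any library other than fresh replicate 4 or cultured replicate 2.

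The MMP genes that lie together on chromosome 9 were close to absent. Of that chromosome, the stretch chr9:7272514-7699585 (427 kb) holds 10 MMP genes: Mmp1a, Mmp1b, Mmp3, Mmp7, Mmp8, Mmp10, Mmp12, Mmp13, Mmp20 and Mmp27. None exceeded 2.34 CPM in any library, and only Mmp12, the macrophage elastase, passed the filter. Of these 10 genes 8 had counts in the run-1 fresh libraries alone. The same held for 24 of all 85 lines, among them 14 ADAM genes such as Adam2, Adam3 and Adam18, which are known from testis. The run-1 libraries also had counts for more genes in all, as given above, so presence in these libraries alone was not read as expression. Of 26 lines that were not tested, none exceeded 1.77 CPM, and 1 line, a second entry for Mmp27, had no count at all.

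The ADAM family held the pair of proteases with the largest gain in CPM. Adam12 (chr7:133883199-134232146, minus strand), or meltrin alpha, which has been linked to myoblast fusion and is expressed in regenerating muscle, had 5.90, 12.8, 6.42, 21.9 and 7.36 CPM in fresh and 275, 235 and 127 CPM in cultured libraries. Every cultured library lay above every fresh one, with a log2 fold change of 3.86 ± 0.64 (adjusted p = 0.00383), and 4.89 without fresh replicate 4. Adam19 (chr11:46055992-46147343, plus strand), or meltrin beta, which sheds neuregulins, had 19.1, 27.7, 24.3, 33.5 and 34.9 CPM in fresh and 263, 293 and 149 CPM in cultured libraries. The groups lay apart, with a log2 fold change of 2.78 ± 0.37 (adjusted p = 0.00135). Genes on the opposite strand cover 10.1% of its exon bases. Adam23 (chr1:63445891-63596276, plus strand), an ADAM without protease activity that binds integrins, went the other way. It had 4.61, 24.4, 26.8, 33.2 and 39.9 CPM in fresh and 0, 0.206 and 0 CPM in cultured libraries. Fresh replicate 1 was the lowest fresh library, and the log2 fold change was -8.91 ± 1.36 (adjusted p = 0.00259). It was -8.32 without cultured replicate 1, and without cultured replicate 2, which held the only counts in culture, the level was at least 470-fold lower.

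The broad sheddases Adam10 and Adam17 were picked out, after their values were seen, because they are the best known ADAMs. Adam10, which cuts Notch receptors and cadherins, had 29.7, 44.8, 36.7, 66.4 and 43.6 CPM in fresh and 41.4, 29.8 and 31.6 CPM in cultured libraries. The groups overlapped (log2 fold change -0.68 ± 0.35, adjusted p = 0.190). Adam17, which releases tumour necrosis factor and ligands of the epidermal growth factor receptor, had 39.4, 38.8, 50.6, 69.6 and 56.2 CPM in fresh and 105, 66.8 and 54.7 CPM in cultured libraries. These overlapped too (log2 fold change 0.26 ± 0.35, adjusted p = 0.627). A change of either gene was not detected with these libraries, which does not show that their levels were equal. Adam21 and Adam33 were called lower from levels below 10 CPM, and Adam21 lost its call on leaving out any library other than fresh replicate 4. The remaining 14 tested ADAMs were not called.

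Some members without a call had counts in culture that came mainly from 1 or 2 libraries, and these were singled out after their values were seen. Adam8, an ADAM of myeloid cells, had 0.741 to 3.98 CPM in fresh and 0, 0.309 and 31.2 CPM in cultured libraries (adjusted p = 0.643). Adam4 had 1.20 to 2.34 CPM in fresh and 1.74, 25.2 and 0.510 CPM in cultured libraries (adjusted p = 0.229). Cultured replicate 3 was the high library for Adam8 and cultured replicate 2 for Adam4. Mmp17, a membrane-type MMP, had 1.14 to 8.54 CPM in fresh and 17.2, 0 and 0 CPM in cultured libraries (adjusted p = 0.963). Adamts6 had 2.51 to 7.82 CPM in fresh and 2.79, 22.3 and 35.6 CPM in cultured libraries (adjusted p = 0.231). Adam1a had 0.0971 to 3.58 CPM in fresh and 25.9, 21.05 and 0 CPM in cultured libraries (adjusted p = 0.289), and 63.7% of its exon bases are shared with other genes, among them Mapkapk5 on the same strand. In each of these 5 genes the SD of the cultured libraries was larger than the difference between the group means. Adam9, a widely expressed sheddase, had 29.2 to 72.9 CPM in fresh and 68.1, 40.0 and 25.2 CPM in cultured libraries, and the groups overlapped (log2 fold change 0.32, adjusted p = 0.652).

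The TIMPs split. Timp2 (chr11:118301069-118355740, minus strand), which inhibits MMPs and also takes part in the activation of pro-MMP2 by MMP14, had 443, 529, 418, 543 and 466 CPM in fresh and 71.4, 108 and 133 CPM in cultured libraries. It was lower in culture by a log2 fold change of -2.28 ± 0.28 (adjusted p = 0.000996), and the groups were well apart. Timp3 (chr10:86300372-86349506, plus strand), the matrix-bound inhibitor that also blocks ADAM17 and the aggrecanases, had 203, 621, 695, 387 and 343 CPM in fresh and 0, 0 and 2.58 CPM in cultured libraries. The only counts in culture were in replicate 3, and the log2 fold change was -8.70 ± 1.47 (adjusted p = 0.00409). Leaving out cultured replicate 1 or 2 gave -8.06 or -8.07, and leaving out cultured replicate 3 gave a level at least 4673-fold lower. Exons of Syn3 on the opposite strand share 21.3% of the exon bases of Timp3.

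Timp1 (chrX:20870166-20874735, plus strand), a soluble inhibitor with a weak effect on membrane-bound MMPs, had 1.77, 5.61, 8.50, 3.85 and 1.82 CPM in fresh and 71.4, 24.1 and 33.8 CPM in cultured libraries. All cultured libraries lay above all fresh ones, and the log2 fold change was 3.92 ± 0.90 (adjusted p = 0.0129). Leaving out fresh replicate 4 gave 4.59, and leaving out fresh replicate 5 ended the call (3.48, adjusted p = 0.0928). Timp4 had 4, 16, 16, 0 and 5 counts in fresh and 0 counts in each cultured library, and was not tested.

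Per kb of exon, which allows levels of different genes to be compared, the make-up of the set differed between the groups. In fresh cells Adamts1 took 28.2% ± 4.89 (SD, n = 5), Timp2 22.6% ± 2.61, Timp3 9.90% ± 3.98 and Mmp2 6.50% ± 1.35 of the summed CPM per kb of all members. In cultured cells Timp1 took 22.2% ± 8.76 (SD, n = 3), Adam19 15.9% ± 5.23 and Timp2 13.5% ± 5.79, while Adamts1 took 2.77% ± 0.38. Summed over each family, the level per kb was 242 ± 38.1 in fresh and 38.3 ± 8.76 in cultured libraries for ADAMTS, and 57.4 ± 5.29 and 4.44 ± 1.32 for MMPs. The ADAMTS-like genes stood at 19.1 ± 4.95 and 0.324 ± 0.454. The ADAM sum was 46.0 ± 5.84 in fresh and 90.8 ± 25.7 in cultured libraries, with 38.6 to 52.1 and 61.3 to 108 CPM per kb as the ranges. The TIMP sum was 183 ± 31.0 and 75.4 ± 22.0. Timp1, with 888 exon bases the shortest TIMP gene by this measure, held 4.85 CPM per kb in fresh and 48.5 in cultured cells, while Timp2 held 123 and 26.7 and Timp3 55.2 and 0.105. The ranges of the groups did not overlap for any of the 5 families, and no test was made on these sums.

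**Figure D3:**
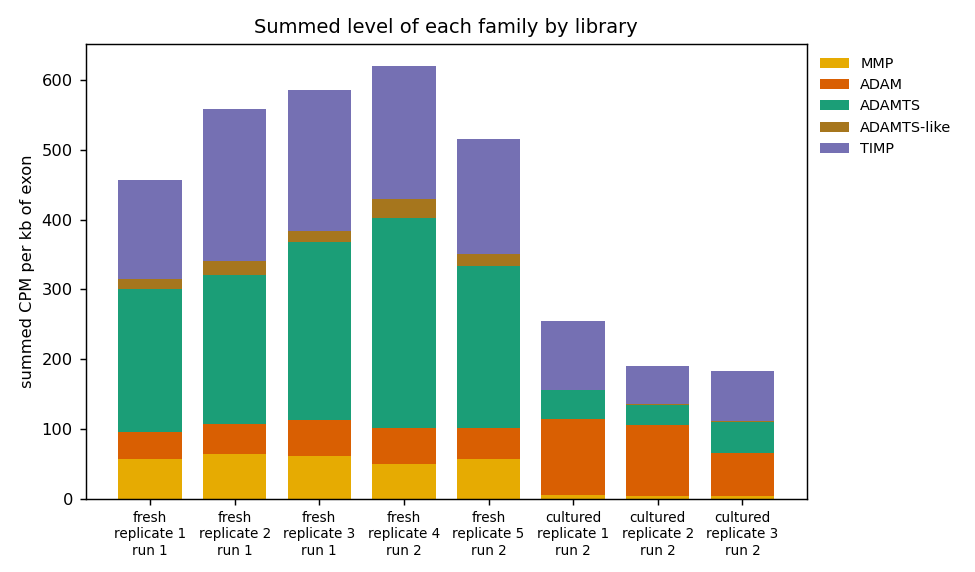
Summed level of each family in each library in CPM per kb of exon, stacked, with a bar per library. The fresh bars reach 456 to 621 and the cultured bars 183 to 254, and the ADAM part is the only family whose part is taller in every cultured bar than in any fresh bar.

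The run coefficient, run-2 fresh over run-1 fresh, sets 2 libraries against 3 and called 0 members (edgeR, lowest adjusted p = 0.0603), against 0.189% of all genes tested. At an unadjusted p under 0.05 it took 9 members, against 15.5% of all genes tested. The DESeq2 test of the same coefficient called 4.83% of all genes. Adamts2 had 28.5, 15.1 and 14.9 CPM in the run-1 and 3.98 and 3.00 CPM in the run-2 fresh libraries without a call (edgeR adjusted p = 0.374). The culture test sets cultured libraries against the run-2 fresh libraries. With the run-1 fresh libraries as control instead, 30 members were lower and 4 higher, against 25.4% and 13.3% of the genes tested there. Among the members described, that control moved the log2 fold change of Adamts2 to -7.93, Adamts5 to -7.84, Adamts12 to -5.18, Adamtsl1 to -8.66 and Adamtsl4 to -5.26. Adam23 moved to -7.87, Adam12 to 4.72, Adam19 to 3.37, Adamts14 to 4.54 and Timp1 to 3.06, and all of these kept their calls. Adam10 moved to -0.05 (edgeR adjusted p = 0.913) and Adam17 to 0.86 (adjusted p = 0.0634), and both stayed without a call. With no run term, Adamts2 stood at -7.43, Adamts14 at 4.85 and Timp1 at 3.32, and Adamts4 was called at -5.27.

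Fresh replicate 1 had the lowest sums of pericyte, Schwann cell, smooth muscle, tenocyte, blood and fibro-adipogenic markers among the fresh libraries. Against the mean of fresh replicates 2 and 3 of the same run, the log2 ratio was -2.77 for pericyte, -3.08 for Schwann cell, -3.11 for tenocyte and -1.79 for smooth muscle markers, -1.29 for blood markers, -0.49 for fibro-adipogenic markers and 0.30 for muscle stem cell markers. The fibro-adipogenic sum was 900 CPM in this library and 1239 to 1324 CPM in the other fresh ones. On the same scale Adam23 stood at -2.48, Timp1 at -1.998, Timp3 at -1.70, Adamtsl3 at -1.36 and Adamts14 at -1.003. Adamts1 was at -0.11, Timp2 at -0.09, Adamts5 at 0.08, Mmp2 at 0.18 and Adamts15 at 0.38. The part of fibro-adipogenic cells, whose markers remained in this library, in the levels of Adamts1, Adamts5, Mmp2 and the other members was not tested.

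With fresh replicate 1 alone as the control, a setting chosen after seeing the data, the fold changes rest on a single library with no replicate spread of its own, and are given as a description. The log2 fold change was -4.43 for Adamts1, -7.93 for Adamts5, -4.82 for Mmp2, -7.85 for Timp3 and -5.93 for Adam23. Adam12 was at 5.16, Adam19 at 3.62, Adamts14 at 5.21 and Timp1 at 4.60.

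**Figure D4:**
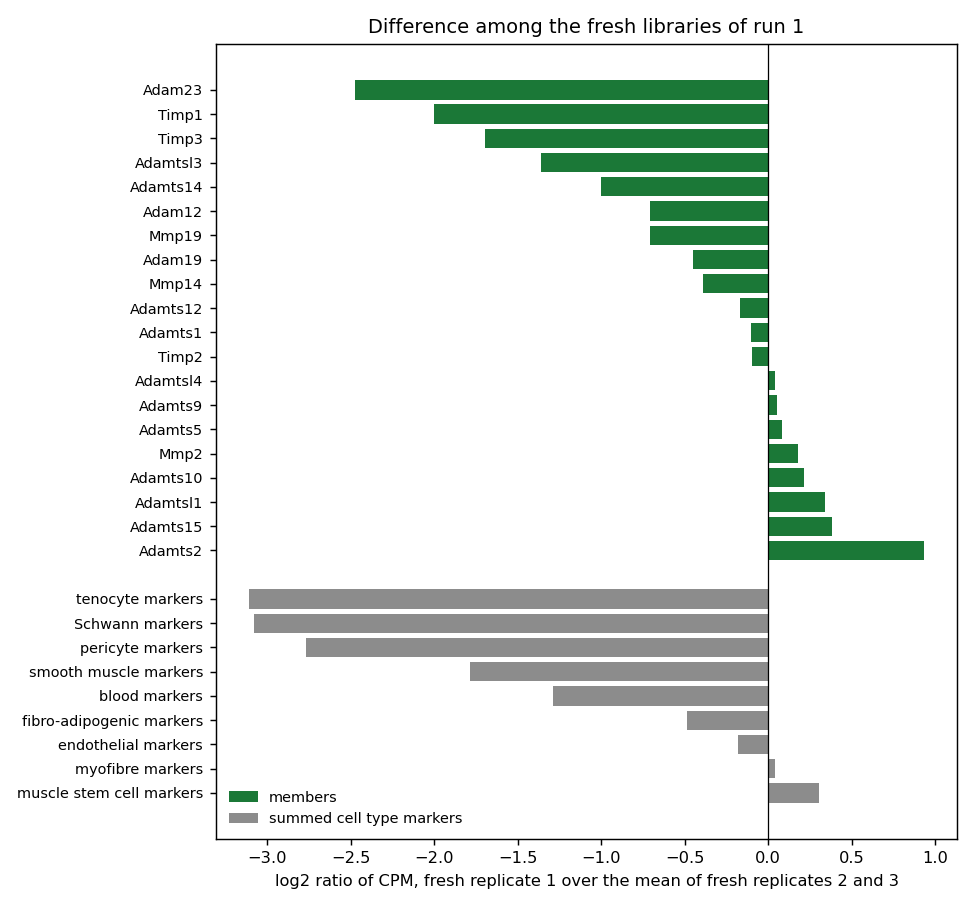
Log2 ratio of fresh replicate 1 to the mean of fresh replicates 2 and 3, for the called members of at least 10 CPM (green) and for the summed markers of 9 cell types (grey). Adam23, Timp1 and Timp3 reach down to between -2.48 and -1.70, beside tenocyte, Schwann cell and pericyte markers at -3.11 to -2.77, while Adamts1, Timp2, Adamts5 and Mmp2 lie between -0.11 and 0.18.

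Regulators of matrix proteolysis outside the families were 31 genes of plasminogen activation, protease activation and clearance. Of 29 tested, 5 were higher and 4 lower, against 8.87% and 18.0% of all genes tested, and 20 were not called, with a median log2 fold change of 0.00. Among the higher genes were Plaur, the urokinase receptor (6.89 ± 4.11 CPM in fresh, SD, n = 5, and 75.0 ± 37.8 in cultured cells, n = 3, log2 fold change 4.60, edgeR adjusted p = 0.00154), and, picked out after their values were seen, Cd44, Bsg and Cd63. Plaur was at 3.04 against the run-1 fresh libraries and 3.44 with no run term. Cd44, a hyaluronan receptor that binds MMP9 and MMP14, went from 120 ± 30.2 to 1215 ± 211 CPM (3.71, adjusted p = 0.000136). Bsg, which induces MMPs in neighbouring cells, had 1.07 (adjusted p = 0.0346), and lost its call without any fresh library and without cultured replicate 2. Cd63, a tetraspanin that binds TIMP1, had 1.04 (adjusted p = 0.0143), lost its call without fresh replicate 4, and stood at -0.13 against the run-1 fresh libraries. With run 2 alone Bsg, Cd63, Plat and Tspan15 lost their calls.

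Lower were Plat, Tspan15, Pcolce and, named to complete the count, Sdc4. Plat, tissue plasminogen activator, went from 43.7 ± 9.50 to 0.781 ± 1.35 CPM (log2 fold change -5.46, edgeR adjusted p = 0.0271). Its call was lost without any of the fresh libraries in turn, and the log2 fold change was -4.82 or -4.83 on leaving out cultured replicate 1 or 2. On leaving out cultured replicate 3 the level was at least 446-fold lower. Pcolce, the enhancer of procollagen C-proteinase, went from 31.4 ± 14.4 to 0.0854 ± 0.0785 CPM (-7.99, adjusted p = 0.00076), with -7.39 without cultured replicate 1 and a ratio of 457 without cultured replicate 2. Tspan15, a tetraspanin that directs ADAM10, went from 35.0 ± 6.15 to 0.806 ± 1.31 CPM (-5.38, adjusted p = 0.0202). It was -4.74 without cultured replicate 1, had a ratio of 656 without cultured replicate 2, and lost its call without fresh replicate 4 or 5. Sdc4, a syndecan, went from 1930.5 ± 813 to 500 ± 38.8 CPM (-1.14, adjusted p = 0.00546), and its change was -2.25 against the run-1 fresh libraries. Reck, a membrane inhibitor of MMPs picked out after its values were seen, had 22.9 to 39.5 CPM in fresh and 0, 5.30 and 0.306 CPM in cultured libraries and was not called (-3.96, adjusted p = 0.0715). It was called without cultured replicate 1 (-3.31) or 2 (-7.46), with no filter on low counts (adjusted p = 0.0497), with no run term (adjusted p = 0.0248) and by DESeq2 (adjusted p = 0.0142).

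Of 24 other matrix-degrading enzymes 23 were in the table and 20 were tested. Of these, 2 were higher and 9 lower, against 8.87% and 18.0% of all genes tested, and 9 were not called, with a median log2 fold change of -2.39 (-2.36 with genes near 0 at their bounds). Htra3, a secreted serine protease, went from 294 ± 106 to 0.291 ± 0.419 CPM (-10.35, edgeR adjusted p = 0.000287), with -9.72 without cultured replicate 1 and a ratio of 7525 without cultured replicate 2. Bmp1, the procollagen C-proteinase, went from 70.7 ± 3.16 to 8.77 ± 7.33 CPM (-3.06, adjusted p = 0.0103), and was -3.87 without cultured replicate 2. Fap, a serine protease of fibroblasts, had 5.46 to 14.2 CPM in fresh libraries and was at 0 in all cultured ones, so it was lower by a factor of at least 259 (adjusted p = 0.00167). Higher were Hyal2, a hyaluronidase (5.22, adjusted p = 0.0269), and, named to complete the count, Ctsd, a lysosomal protease (1.01, adjusted p = 0.0212). Hyal2 lost its call without fresh replicate 4 (4.29), and was 3.93 without cultured replicate 1, with a ratio of 495 without fresh replicate 5. It was at 3.02 against the run-1 fresh libraries, 3.54 with no run term and 3.07 against fresh replicate 1 alone. Ctsd lost its call without fresh replicates 4 or 5 or cultured replicate 3. With run 2 alone Bmp1, Hyal2 and Ctsd were not called.

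Of 37 known substrates of ADAM and ADAMTS proteases, 34 were tested. Of these, 4 were higher and 15 lower, against 8.87% and 18.0% of all genes tested, and 15 were not called, with a median log2 fold change of -1.57. The small proteoglycans Bgn and Dcn and the fibrillar collagens Col1a1 and Col3a1 were lower. Their log2 fold changes were -4.82 (edgeR adjusted p = 0.00116), -5.54 (adjusted p = 0.000519), -5.88 (adjusted p = 0.00112) and -6.07 (adjusted p = 0.000229). Dcn, Col1a1 and Col3a1 are also in the list of fibro-adipogenic markers whose sums were given above. The higher substrates, named to complete the count, were Met (1.99, adjusted p = 0.000924), Cdh2 (2.48, adjusted p = 0.00829), Sdc3 (1.57, adjusted p = 0.0134) and Il6ra (4.00, adjusted p = 0.0357). Met is the receptor of hepatocyte growth factor. The call was lost without fresh replicate 5 for Cdh2 and Sdc3, without fresh replicate 4 for Sdc3, and without fresh replicate 1, 2 or 3 for Il6ra. The fold of Il6ra was 3.09 without fresh replicate 4, and its ratio was 268 without fresh replicate 5. It was not called with run 2 alone. Vcan, the versican substrate of Adamts1, Adamts5, Adamts9 and Adamts15, was picked out after its values were seen. It had 10.1, 16.6, 31.8, 27.4 and 19.8 CPM in fresh and 47.2, 94.0 and 71.3 CPM in cultured libraries. The groups did not overlap and it was not called (1.59 ± 0.55, adjusted p = 0.0621), but it was called without fresh replicate 3 or cultured replicate 1. It was also called with no scaling (adjusted p = 0.0276), with no run term (adjusted p = 0.00751), against the run-1 fresh libraries (adjusted p = 0.0206) and by DESeq2 (adjusted p = 0.0272).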

How the data were processed

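RNA from 8 libraries was amplified as cDNA (NuGEN Ovation v2) and sequenced, per the labels' protocols. The deposited file is a single table of expected counts of each gene, judged from its values and the tools named. STAR, RSEM and mm10 were used, per the submitters' processing notes, with versions, annotation and strand not given in the sources used here. RSEM shares reads among near-identical genes, so close copies such as Adam26a and Adam26b are uncertain. Of values above 0, 50.1% were not whole. All were rounded for the tests, while levels in CPM, bounds and ratios use the unrounded values. Left out were 92 spike-in lines. The remaining 45706 lines include 2423 without a gene identifier, 84 of the 85 members matched GENCODE M21, and exon lengths come from it.

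Genes passed edgeR's filterByExpr, and libraries were scaled by TMM. Cultured and fresh libraries were compared with edgeR 4.0.16 (R 4.3.3), by its quasi-likelihood test, sequencing run being a second term, 5 residual degrees of freedom and Benjamini-Hochberg adjustment at 0.05. As no cultured library was in run 1, the culture term rests on the run-2 fresh libraries, and run-1 libraries add to the spread. Log2 fold changes of genes near 0 counts are little shrunk. A group at 0 is set at 3 counts over its run-2 libraries (0.0517 CPM cultured, 0.0962 CPM fresh). With 1 to 3 counts the ratio of pooled run-2 levels is given, with a 95% exact interval. A pooled level is the summed count of a group over its summed scaled library sizes. The labels mention no molecular identifiers, so such intervals and bounds cover counting error only. Motifs were searched in the RefSeq promoter table of GRCm38.p6.

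Named are every TIMP and every called member with a group mean of at least 10 CPM, and in the lists up to 4 called genes of the largest fold above the same level. Genes said to be picked out, or named to complete a count, fall outside this rule. A gene of the lists is not reported here. Members and lists were chosen with earlier results of these data known. Alternatives were DESeq2 size factors, no scaling, no filter, no run term, run 2 alone, run-1 libraries as control, DESeq2 1.42.0, a replicate block and each library left out. On data simulated for this comparison with 18053 genes, 12 of 100 genes at a log2 fold of 2 and 65 of 100 at 4 were recovered, with 2 false calls.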

Additional observations from a re-analysis of the deposited data

Results flagged for a closer look

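A library stood far from the others of its group for 3 of 26 members described that were examined in the 5 fresh libraries. Chance gives this in about 1 of 20 groups. Adamts12 had 90.2 CPM in fresh replicate 4, and the next highest fresh library had 55.6 CPM. Adamts9 had 75.7 CPM in fresh replicate 5, and the next highest had 62.2 CPM. Mmp14 had 75.4 CPM in fresh replicate 2, and the next highest had 53.3 CPM. All 3 stood above the rest of the group, in 3 different libraries, and the lowest fresh value of each remained above every cultured library.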

How the results depend on the processing

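Of the 28 called members, 17 kept their call in each of the 17 settings they could be tested in, and 23 in each of the 8 fits that left out a library. Of 470 values for these members, 41 lost the call and none reversed. The count of all genes called in culture was 5122, and 2780 with run 2 alone, 2482 with the replicate block and 3337 to 6163 with a library left out (3402 without fresh replicate 4, 3337 without fresh replicate 5). Of members called higher there were 5, but 3 with the replicate block and 3 to 6 with a library left out (3 without fresh replicate 5). Members called lower numbered 23, and 17 to 30 over all settings. For the run, 36 genes were called, and 81 with no filter, 921 with DESeq2 and 1 to 117 with a library left out.

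Same-numbered fresh and cultured libraries had correlations of their deviations of 0.0296, 0.0103 and 0.0108, so the shared numbers were not taken to pair the samples, although every library correlated best with its own number. The block fit sets cultured against run-1 fresh libraries. Under it Timp1 (3.03, adjusted p = 0.0725), Mmp9, Adam21, Adam33, Adamts3, Adamts17, Adamtsl2, Mmp21 and Mmp28 lost their calls, and Adamts4 gained one, as did Vcan of the lists (adjusted p = 0.0433). Bsg, Cd63, Ctsd and Hyal2 of the lists lost theirs. The cause was not tested.

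Adam10 reversed to 0.21 against fresh replicate 1 alone. Cd63 reversed to -0.13 against the run-1 fresh libraries, -0.029 against fresh replicate 1 alone and -0.20 with the replicate block. With 2 fresh libraries in run 2, a change that was not called may still be present. In the simulated data 12 of 100 changes at a log2 fold of 2 were called. Far fewer genes were changed there than were called in these data, so that share does not carry over to them.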
